A study of Mus musculus with 16 samples.

Results

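The transcriptional response to 2 h of CD3/CD28 stimulation was examined in D10 cells, a mouse Th2 cell line, in which Akt was inhibited with Akti1/2. The members were the 2 arrays of cells stimulated for 2 h and the 2 arrays of cells at 0 h that had received the same 10 µM of Akti1/2, 4 of the 16 arrays of the series, and all 7395 of 18138 genes that lay above the negative controls on at least 2 arrays. D10 cells were kept in medium with interleukin-2 and received Akti1/2 from 1 h ahead of stimulation, for which biotinylated antibodies to CD3 and CD28 were crosslinked by streptavidin. The control groups had no inhibitor. The methods call such cells untreated, while another description has them given solvent, and which applies is not settled. The remaining arrays held both kinds of cells at 6 h and 12 h. Neither the labels nor the methods say whether the duplicates were separate cultures, so the p-values measure the spread between arrays, which may be technical. Cells at 2 h had also spent 2 h longer with the inhibitor than cells at 0 h, and stimulation and this additional time cannot be told apart. As a cell line, D10 lacks the mixture of T helper subsets of an animal.

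The T cell receptor signals through the CD3 chains, and CD28 adds a costimulatory signal through PI3K, the kinase upstream of Akt. Together they activate NF-κB, AP-1 and NFAT, which switch on cytokine genes, and Akt restrains the FOXO transcription factors and promotes mTOR activity, glucose uptake and growth. Akti1/2 is an allosteric inhibitor of Akt1 and Akt2. The integrated stress response is a separate program in which phosphorylation of the initiation factor eIF2 lowers general translation while favouring translation of ATF4, a factor that induces genes for amino acid synthesis, uptake and tRNA charging.

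In cells with Akti1/2, 2857 genes differed between 2 h and 0 h, which was 38.6% of the genes tested. Of these, 1313 were higher at 2 h (17.8%) and 1544 were lower (20.9%), by limma with all 8 groups in 1 fit and a Benjamini-Hochberg adjusted p under 0.05. The count was 1803 without replicate 2 at 0 h and 1819 without replicate 2 at 2 h. Most of the changes were small. The median log2 change was 0.68 among the genes called higher and -0.63 among those called lower, 302 and 207 genes changed at least 2-fold, and 26 and 4 at least 4-fold. The changes on the 2 chips, which each held 1 array of every group, had a correlation of 0.808 over all genes tested. Of the 2857 genes called, 2856 had the same sign on both chips. A call rests on the mean of these 2 changes, so it nearly fixes the shared sign, which is no separate support. Genes whose arrays did not overlap between 0 h and 2 h were common with 2 arrays against 2, at 70.0% of all genes (32.9% higher and 37.1% lower at 2 h), so that a lack of overlap alone sets no gene apart here.

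**Figure D1:**
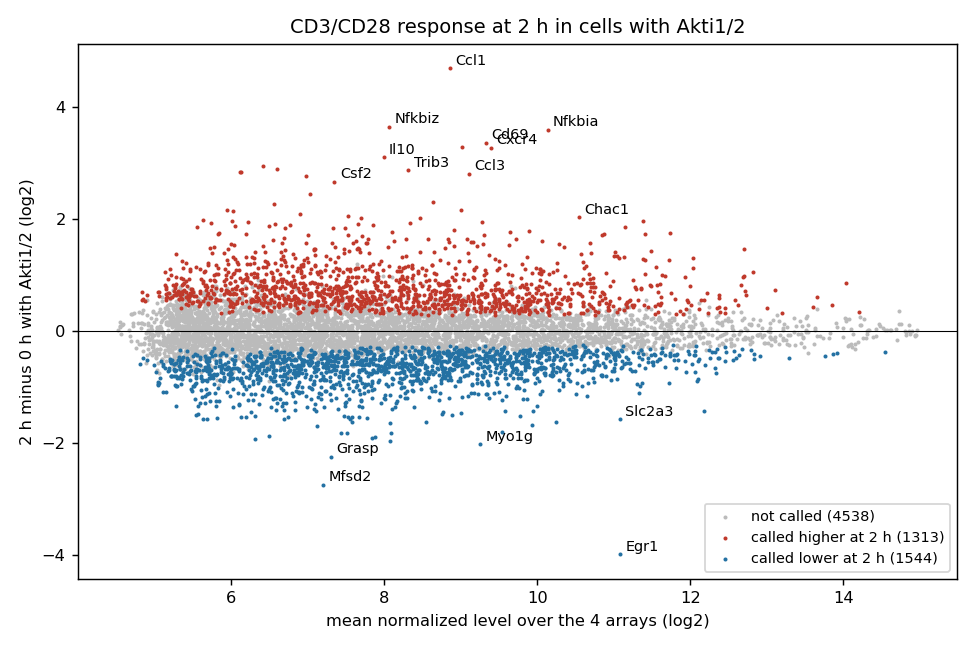
The change between 0 h and 2 h in cells with Akti1/2 (2 h minus 0 h, log2) is plotted for each of the 7395 genes against its mean normalized level over the 4 arrays (log2), with the genes called higher in red and those called lower in blue. Ccl1 stands highest at 4.69 and Egr1 lowest at -4.00, while most called genes lie close to the zero line.

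The arrays at 2 h with Akti1/2 differed from the others in brightness. Their mean intensities of 414.2 and 393.8 were the lowest of the series against 500.9 and 427.3 at 0 h with Akti1/2, yet 6907 and 6796 genes lay above background on them, the most of the series, against 6528 and 6463 at 0 h. Array brightness therefore moved with stimulation in these cells, and its part in the results was not tested. The median log2 change of all genes was -0.03 after background correction and quantile normalization, and over 5 bins of mean level it lay between -0.07 and 0.01. Gene lists are given by the members tested, since members that were not above background on 2 of the 16 arrays had no test. The level of a gene is its normalized log2 intensity on replicates 1 and 2, and changes as 2 h minus 0 h on the log2 scale with their standard error (SE, n = 2 arrays per group).

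The largest rises among genes above background at both times were in a chemokine, in inhibitors of NF-κB and in activation markers. Ccl1, a chemokine of activated Th2 cells, had levels of 6.51 and 6.52 at 0 h and of 11.03 and 11.38 at 2 h. Both stimulated arrays lay far above both arrays at 0 h, a 25.8-fold rise (4.69 ± 0.18, adjusted p = 2.28e-08). Nfkbiz, which encodes the nuclear inhibitor IκBζ, had levels of 6.14 and 6.33 at 0 h and of 9.80 and 9.97 at 2 h (3.65 ± 0.21, adjusted p = 6.85e-07). Nfkbia, which encodes the classical inhibitor IκBα and is itself induced by NF-κB, went from 8.33 and 8.34 to 11.87 and 12.00 (3.60 ± 0.17, adjusted p = 6.47e-08). For these genes the arrays of a group lay close together in comparison with the distance between the groups.

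Cd69, an early marker of lymphocyte activation, rose from 7.67 and 7.62 at 0 h to 11.10 and 10.92 at 2 h (3.36 ± 0.17, adjusted p = 1.41e-07). Tnfaip3 encodes A20, a ubiquitin-editing enzyme that ends NF-κB signalling, and its levels were 7.51 and 7.24 at 0 h and 10.83 and 10.51 at 2 h (3.29 ± 0.21, adjusted p = 1.24e-06). Cxcr4, the receptor of CXCL12, had levels of 7.85 and 7.66 at 0 h and of 10.90 and 11.16 at 2 h (3.27 ± 0.26, adjusted p = 4.55e-06). These genes started at a middle intensity and reached that of bright genes on these arrays. Il10, an anti-inflammatory cytokine, rose from 6.29 and 6.60 to 9.47 and 9.62 (3.10 ± 0.21, adjusted p = 1.67e-06), and Trib3, a pseudokinase induced by ATF4, from 6.82 and 6.94 to 9.84 and 9.65 (2.87 ± 0.13, adjusted p = 5.22e-08). The remaining 4 of the 12 largest rises were Ccl3 (2.80 ± 0.12), a chemokine for macrophages and T cells, Gadd45b (2.76 ± 0.21), a stress sensor of the MAP kinase pathways, Csf2 (2.67 ± 0.20), which encodes GM-CSF, and Arrdc3 (2.44 ± 0.21), an arrestin-domain protein. Gadd45b was above background on 1 of the 2 arrays at 0 h.

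**Figure D2:**
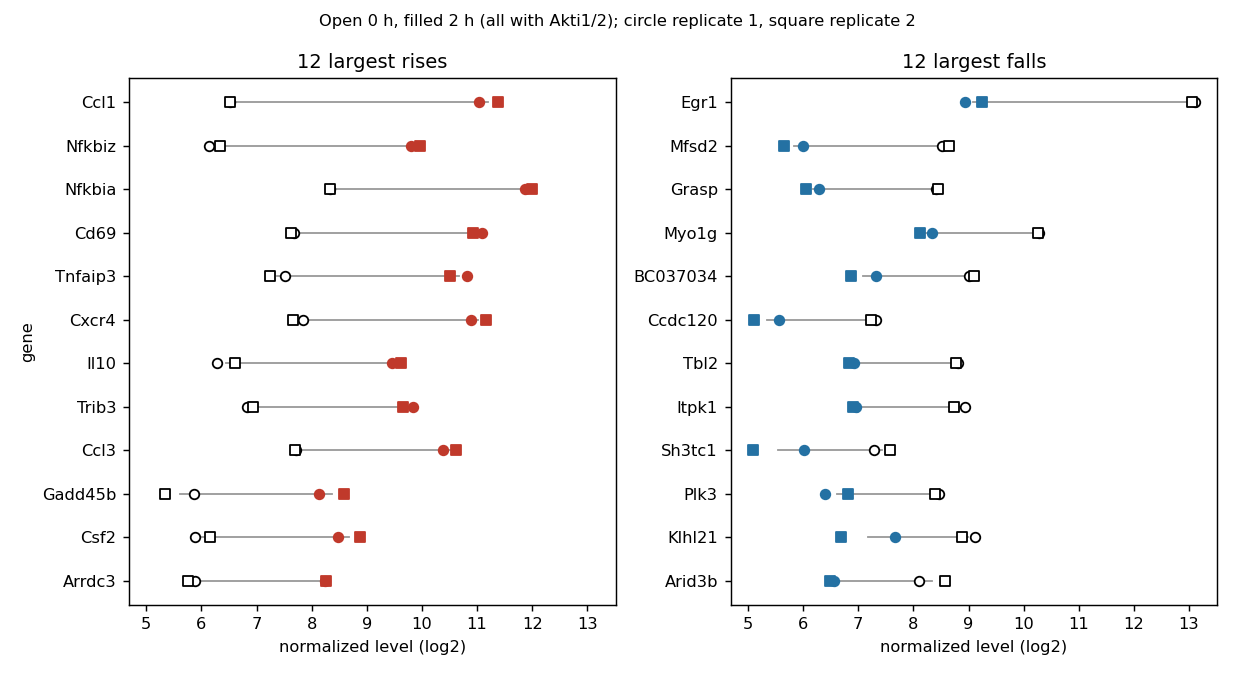
Normalized levels (log2) on each array with Akti1/2 are shown for the 12 largest rises and the 12 largest falls among genes above background in both groups, with open symbols at 0 h, filled symbols at 2 h, circles for replicate 1, squares for replicate 2 and a line joining the group means. In every gene shown both filled symbols lie on the same side of both open symbols, as in 70.0% of all genes. The genes were chosen by the size of these changes, so this sets them no further apart. Egr1 covers the widest distance among the falls.

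Of the NF-κB subunits, inhibitors and feedback genes, 14 of the 22 tested (of 24 on the array) rose (63.6%, against 17.8% of all genes) and none fell, with a median of 0.71 against -0.03 over all genes. Beside Nfkbiz, Nfkbia and Tnfaip3, the adaptor Traf1 went from 8.09 and 7.75 to 10.00 and 10.17 (2.17 ± 0.15, adjusted p = 1.67e-06). Rel, the c-Rel subunit of lymphocytes, was not above background at 0 h and reached 6.66 and 6.73 at 2 h, at least 2.06-fold higher (adjusted p = 5.49e-05). The subunits Relb (1.57) and Nfkb1 (0.74) rose as well. In control cells the median of the same genes was 0.77.

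The promoter of Nfkbia shows the sequence that NF-κB recognises, printed here because this inhibitor was among the strongest rises. The window runs from 250 bases before to 50 bases after the annotated start, at chr12:55492598-55492897 on the minus strand in GRCm38.p6 (RefSeq), 5′ to 3′ in the direction of transcription. Capitals mark the match to the κB consensus motif of NF-κB, searched on both strands, which begins 29 bases before the start.
Nfkbia: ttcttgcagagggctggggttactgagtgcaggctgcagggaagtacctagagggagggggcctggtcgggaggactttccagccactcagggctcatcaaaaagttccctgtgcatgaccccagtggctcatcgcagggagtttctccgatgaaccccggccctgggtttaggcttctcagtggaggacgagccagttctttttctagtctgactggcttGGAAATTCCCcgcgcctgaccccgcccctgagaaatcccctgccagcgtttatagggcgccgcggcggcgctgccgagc
The motif occurs in 8.46% of all 32851 promoter windows, in 12.1% of the 5683 tested genes with a window, in 13.8% of the genes called higher and 12.3% of those called lower, and in 9 of the 18 genes of the NF-κB list that have a window, among them Tnfaip3 and Rel. Since the motif is nearly its own reverse complement, some sites match on both strands. A match of letters is a description and no evidence of binding.

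The immediate early genes did not move together. Among the 11 EGR, NR4A and AP-1 genes tested, of 20 on the array, 6 rose (54.5%, against 17.8% of all genes). The 3 that fell (27.3%) were near the 20.9% of all genes. Egr1, a zinc finger factor that growth signals induce within minutes, was among the brightest genes at 0 h with levels of 13.11 and 13.06 and had levels of 8.93 and 9.24 at 2 h. The change was -4.00 ± 0.29 (adjusted p = 2.17e-06), the largest fall among all genes called. Control cells had a similar pattern, with levels of 13.26 and 12.96 at 0 h and of 9.02 and 9.66 at 2 h, and the difference of the responses was -0.23 ± 0.40 (adjusted p = 0.76).

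Atf3, a stress-induced factor of the ATF/CREB family, was not above background at 0 h, with 4.81 and 4.59, and reached 7.20 and 7.87 at 2 h. It was at least 3.68-fold higher (adjusted p = 1.32e-05). Ier3, which protects cells from apoptosis, rose from 10.24 and 10.58 to 12.21 and 12.52 (1.95 ± 0.18), and Junb, an AP-1 subunit, from 10.03 and 9.96 to 11.56 and 11.85 (1.71 ± 0.15). Jun, the founding AP-1 subunit, went the other way, from 6.27 and 6.43 to 5.62 and 5.70 (-0.68 ± 0.18, adjusted p = 0.0114). Its call was lost without replicate 2 at 0 h (adjusted p = 0.0793) and without replicate 1 at 2 h (0.0527), and with arrays scaled to the same mean it was 0.0502. Batf, an AP-1 factor of T helper differentiation, rose by 1.13.

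Among cytokine and growth factor ligands, 13 of the 24 tested rose (54.2%, of 40 on the array) and 4 fell (16.7%, with 2 without replicate 2 at 0 h or either array at 2 h), against 17.8% and 20.9% of all genes, with a median of 0.62, or 0.57 with genes at background set to their bound. Csf2 had levels of 5.89 and 6.15 at 0 h and of 8.48 and 8.88 at 2 h (adjusted p = 3.49e-06). Il3, a growth factor of haematopoietic cells, was not above background at 0 h and had levels of 7.28 and 7.80 at 2 h, at least 3.70-fold higher (adjusted p = 5.16e-06). Il16, a chemoattractant for CD4 cells, rose from 6.87 and 6.56 to 8.48 and 8.75 (1.90 ± 0.23, adjusted p = 9.93e-05). Of these 3 genes, Il16 had the highest intensities before stimulation, which do not compare amounts between genes.

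The Th2 cytokines behaved differently from one another. Il4, which directs B cells to IgE, rose from 10.44 and 10.24 to 11.84 and 11.51 (1.33 ± 0.14, adjusted p = 3.29e-05). Il13, which acts on epithelium and smooth muscle, went from 5.80 and 5.93 to 6.96 and 8.08 (1.66 ± 0.43, adjusted p = 0.0106), with the 2 stimulated arrays more than 1 unit apart. Il5, the growth factor of eosinophils, fell from 8.35 and 8.39 to 6.89 and 7.73 (-1.06 ± 0.26, adjusted p = 0.00695). Both stimulated arrays of Il5 lay below both arrays at 0 h. Both calls were lost without single arrays. The adjusted p of Il13 was 0.111 without replicate 2 at 2 h and 0.0542 without replicate 1 at 0 h, and that of Il5 was 0.066 without replicate 1 at 2 h.

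Of the 9 chemokine ligands tested, from 21 on the array, 5 rose (55.6%, against 17.8% of all genes) and none fell, and 3 rose among genes above background on all arrays. Ccl3 had levels of 7.71 and 7.70 at 0 h and of 10.39 and 10.62 at 2 h (adjusted p = 5.22e-08), and Ccl4, its close relative, went from 10.11 and 10.32 to 11.96 and 12.18 (1.85 ± 0.14). Cxcl2, a neutrophil attractant, was not above background at 0 h and was at least 1.96-fold higher at 2 h (adjusted p = 7.20e-05). The cytokine and chemokine receptors were more mixed, with 38.1% higher (8 of 21) and 14.3% lower (3). The 8 became 3, 5 and 4 without replicate 2 at 0 h, replicate 1 at 2 h and replicate 2 at 2 h, and apart from Cxcr4 none of the called members changed by more than 0.74 in either direction.

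Most genes of the integrated stress response rose. Of the 28 genes of this response and ATF4 targets tested, from 39 on the array, 23 rose (82.1%, against 17.8% of all genes), none fell, and the median change was 0.86 on the log2 scale. In control cells the median of the same genes was -0.01. The members that rose ranged from the regulators to transporters and biosynthetic enzymes.

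The regulators rose to different degrees. Atf4, the central factor, went from 11.15 and 11.01 to 12.03 and 11.74 (0.80 ± 0.12, adjusted p = 3.49e-04). Ddit3, which encodes the factor CHOP, went from 8.28 and 8.25 to 9.84 and 9.96 (1.63 ± 0.10, adjusted p = 1.22e-06), and Cebpb, which encodes a partner of both, from 10.01 and 9.99 to 11.84 and 11.62 (1.73 ± 0.12, adjusted p = 1.54e-06). The changes of the 3 factors were well beyond the spread between arrays, which was at most 0.29. Jdp2, a repressor of the same bZIP class (1.84 ± 0.26), and Xbp1, a factor of the unfolded protein response (0.45 ± 0.13, adjusted p = 0.0166), were also called. Xbp1 lost its call without replicate 1 or 2 at 0 h or replicate 1 at 2 h (adjusted p 0.0607, 0.077 and 0.0761).

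Among the effectors, Chac1, a glutathione-degrading enzyme, was already bright at 0 h with 9.51 and 9.54 and reached 11.49 and 11.61 (2.03 ± 0.18, adjusted p = 9.93e-06). Chac1 and Ddit3 were higher in cells with Akti1/2 than in control cells before stimulation, by 1.45 and 1.07. Slc1a4, a transporter of neutral amino acids, had levels of 5.05 and 4.85 at 0 h, not above background, and of 7.95 and 7.83 at 2 h, at least 4.72-fold higher (adjusted p = 1.24e-06). Sesn2, a leucine sensor that restrains mTORC1, went from 5.75 and 5.89 to 7.44 and 7.97 (1.88 ± 0.22). Herpud1 (1.74 ± 0.12), of the disposal of misfolded proteins, and Ddit4 (1.73 ± 0.18), an inhibitor of mTORC1, rose in the same range. Aldh18a1, an enzyme of proline synthesis (1.19 ± 0.16), and Asns, asparagine synthetase (0.78 ± 0.10), rose less.

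Trib3, Chac1, Slc1a4 and Atf3, whose promoters are shown, were among the 6 genes with the largest fitted differences above the response of control cells. Col4a1 and Dhcr7, also among these 6, are not shown, so the matches below do not describe the 6 as a set. Each window runs from 250 bases before to 50 bases after the start, 5′ to 3′ in GRCm38.p6 (RefSeq). Capitals mark TGATGNAA on either strand, the letters of a composite C/EBP and ATF site. The windows lie at chr2:152344011-152344310 on the minus strand for Trib3, at chr2:119350992-119351291 on the plus strand for Chac1, at chr11:20332664-20332963 on the minus strand for Slc1a4 and at chr1:191183284-191183583 on the minus strand for Atf3.
Trib3: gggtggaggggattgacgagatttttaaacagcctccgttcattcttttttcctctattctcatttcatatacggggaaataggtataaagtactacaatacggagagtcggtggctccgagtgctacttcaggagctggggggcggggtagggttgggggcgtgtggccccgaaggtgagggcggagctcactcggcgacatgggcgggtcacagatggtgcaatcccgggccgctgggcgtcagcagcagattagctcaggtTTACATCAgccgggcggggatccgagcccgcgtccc
Chac1: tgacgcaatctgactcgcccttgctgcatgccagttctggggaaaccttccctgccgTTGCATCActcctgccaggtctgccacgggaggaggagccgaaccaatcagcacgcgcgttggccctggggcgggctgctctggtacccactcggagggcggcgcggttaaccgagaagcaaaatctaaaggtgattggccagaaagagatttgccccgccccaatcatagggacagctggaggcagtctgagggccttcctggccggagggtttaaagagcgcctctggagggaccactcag
Slc1a4: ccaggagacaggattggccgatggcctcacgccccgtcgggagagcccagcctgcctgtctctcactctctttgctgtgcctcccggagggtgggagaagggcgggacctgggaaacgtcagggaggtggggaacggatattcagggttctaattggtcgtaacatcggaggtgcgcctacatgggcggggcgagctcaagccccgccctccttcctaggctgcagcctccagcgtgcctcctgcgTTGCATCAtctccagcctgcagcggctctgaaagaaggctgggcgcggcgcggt
Atf3: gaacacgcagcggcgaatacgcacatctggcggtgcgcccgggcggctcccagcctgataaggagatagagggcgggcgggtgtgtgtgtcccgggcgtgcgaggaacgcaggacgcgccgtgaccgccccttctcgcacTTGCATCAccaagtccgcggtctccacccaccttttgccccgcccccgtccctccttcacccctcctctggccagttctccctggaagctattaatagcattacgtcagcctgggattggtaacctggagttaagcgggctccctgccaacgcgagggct
In each of them the match lies on the strand opposite to transcription. Its leftmost base is the 15th base of the transcript in Trib3 and lies 193, 4 and 110 bases before the start in Chac1, Slc1a4 and Atf3. The letters occur in 3.97% of all windows, in 2.85% of tested genes with a window and in 8 of 27 genes of the stress response list with one (29.6%). They occur in 4.1% of the genes called higher and in 1.68% of those called lower.

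Aminoacyl-tRNA synthetases, which load amino acids onto tRNAs and include ATF4 targets, rose in 9 of 27 cases (33.3%, against 17.8% of all genes) and fell in 2 (7.41%, against 20.9%), with a median of 0.22, or 0.07 with genes at background at their bound. The 9 became 5 without replicate 1 or 2 at 0 h or replicate 1 at 2 h. Eprs, for glutamate and proline, went from 8.01 and 8.32 to 8.94 and 9.42 (1.01 ± 0.20, adjusted p = 0.00230), and Lars, for leucine, from 8.40 and 8.35 to 9.18 and 9.31 (0.87 ± 0.11). Mars2, the mitochondrial enzyme for methionine, fell from 7.34 and 7.62 to 6.25 and 6.50 (-1.10 ± 0.16). Gars (0.27, adjusted p = 0.0759) and Sars (0.37, adjusted p = 0.0926), for glycine and serine, did not pass the test at 2 h.

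**Figure D3:**
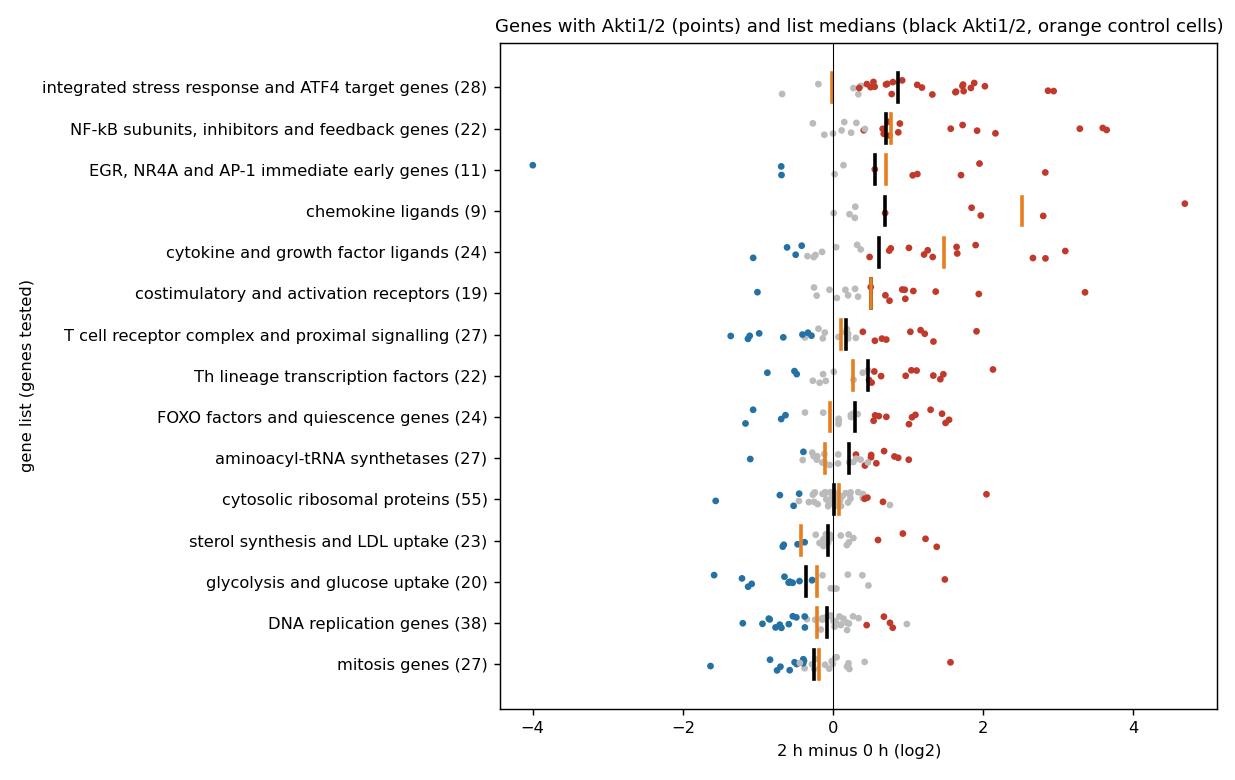
For 15 gene lists, each point is the change of a gene between 0 h and 2 h with Akti1/2 (log2), red where called higher, blue where called lower and grey otherwise, with the list's median in black and its median in control cells in orange. The stress response list lies to the right of zero with its control median at -0.01, and the chemokine and cytokine lists have their control medians, 2.51 and 1.48, to the right of those with Akti1/2.

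Costimulatory and activation receptors rose in 10 of 19 cases (52.6%, against 17.8% of all genes), and 1 fell (5.26%, against 20.9%), or 3 with arrays scaled to the same mean. The 1 was Cd160, a ligand-binding receptor of cytotoxic cells (7.64 and 7.41 to 6.42 and 6.62). Cd28 itself, the receptor engaged by the stimulus, went from 9.66 and 10.11 to 11.27 and 11.24 (1.37 ± 0.16, adjusted p = 6.30e-05). Ctla4, its inhibitory counterpart, went from 9.61 and 9.48 to 10.64 and 10.59 (1.07 ± 0.13). The death receptor Fas was not above background at 0 h and was at least 2.91-fold higher at 2 h (adjusted p = 3.49e-06).

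The T cell receptor complex and its proximal signalling genes split, with 9 of 27 higher (33.3%, against 17.8% of all genes) and 8 lower (29.6%, against 20.9%). The 8 became 5 without replicate 1 or 2 at 0 h or replicate 2 at 2 h. Cd3e, a signalling chain of the receptor, fell from 11.76 and 11.91 to 10.92 and 10.78 (-0.98 ± 0.11, adjusted p = 4.56e-05), a 1.98-fold lower level. Tec, a kinase downstream of the receptor, fell from 6.70 and 6.70 to 5.71 and 4.97 (-1.36 ± 0.20), where it was above background on 1 array. Malt1, the paracaspase that links the receptor to NF-κB, rose from 5.84 and 5.40 to 7.33 and 7.73 (1.91 ± 0.39), and Ptprc, which encodes the phosphatase CD45, from 6.63 and 6.50 to 7.71 and 8.10 (1.34 ± 0.33, adjusted p = 0.00755). Without replicate 2 at 2 h the adjusted p of Ptprc was 0.0615.

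Of the MAP kinase phosphatase, Sprouty and GADD45 genes, which feed back on signalling, 4 of 13 rose (30.8%, against 17.8% of all genes) and 5 fell (38.5%, against 20.9%). The 5 became 1 without replicate 2 at either time and 3 without replicate 1 at either time. Dusp1, which dephosphorylates p38 and JNK, rose from 9.42 and 9.11 to 10.88 and 10.87 (1.61 ± 0.18), and Gadd45g fell from 8.53 and 8.47 to 7.63 and 7.46 (-0.95 ± 0.14) while Gadd45b rose. Among the SOCS, CISH and PIM genes 3 of 10 rose (30.0%, and 1 gene without replicate 1 or 2 at 0 h), led by Socs2, a feedback inhibitor of cytokine signalling (1.30 ± 0.15), and 2 fell, led by the survival kinase Pim3 (-1.22 ± 0.13). Of the 6 RGS genes, which end G protein signalling, 3 rose and Rgs14 fell by 1.05, a call lost without replicate 2 at 0 h (adjusted p = 0.0585) or at 2 h (0.0845). Rgs12 rose most, from 7.23 and 7.75 to 9.74 and 9.85 (2.31 ± 0.17).

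Among Th lineage transcription factors, 11 of 22 rose (50.0%, against 17.8% of all genes) and 3 fell (13.6%, against 20.9%), with a median of 0.47. The 3 became 1 without replicate 2 at 0 h or at 2 h. Bcl6, the repressor of follicular helper cells, was not above background at 0 h and was at least 2.71-fold higher at 2 h (adjusted p = 5.30e-06). Irf4, required for Th2 differentiation, went from 6.98 and 6.86 to 8.36 and 8.42 (1.47 ± 0.20), and the chromatin organiser Satb1 from 10.79 and 10.76 to 12.14 and 12.27 (1.43 ± 0.10). Gata3, the defining factor of Th2 cells, was bright before stimulation with 12.22 and 12.21 and reached 13.07 and 13.31 (0.97 ± 0.12, adjusted p = 1.05e-04).

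FOXO factors and genes of quiescence, many of which FOXO induces when Akt is off, rose in 11 of 24 cases (45.8%, against 17.8% of all genes) and fell in 4 (16.7%, against 20.9%). The median was 0.30, or 0.24 at the bounds, against -0.04 in control cells. The 11 became 5 among genes above background on all arrays, and the 4 became 2 without replicate 2 at 0 h or replicate 1 at 2 h. Tsc22d3, which encodes the leucine zipper protein GILZ, went from 9.65 and 9.54 to 11.00 and 11.18 (1.5 ± 0.13, adjusted p = 7.34e-06). Pik3ip1, an inhibitor of PI3K, rose from 5.86 and 5.42 to 6.81 and 7.08 (1.30 ± 0.25). Bcl2l11, which encodes the death inducer Bim, and Sesn3, an inhibitor of mTORC1, were not above background at 0 h and were at least 2.17-fold and 2.04-fold higher. Txnip, an inhibitor of thioredoxin and glucose uptake that is also a FOXO target, fell by 1.06.

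PI3K, Akt and mTOR pathway genes had 7 of 34 members higher (20.6%) and 9 lower (26.5%), shares close to the 17.8% and 20.9% of all genes. The 9 became 3 without replicate 2 at 0 h and 4 without replicate 2 at 2 h. Among those that rose, Eif4ebp2, a repressor of cap-dependent translation, went from 7.51 and 8.05 to 9.07 and 8.82 (1.17 ± 0.20).

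Growth genes gave no common direction. Myc, a driver of T cell growth, fell from 7.76 and 8.19 to 6.29 and 6.25 (-1.71 ± 0.18, adjusted p = 4.38e-05), 3.26-fold lower, and Mxd3, a member of the same network, fell by 1.55. The other 6 members of the MYC network tested did not pass the test. The share that fell, 25.0%, was near the 20.9% of all genes, and the 2 became 1 among genes above background on all arrays. In control cells 2 of the 8 were lower and none higher, against 5.86% and 4.42% of all genes, with a median of -0.31 against -0.15 with Akti1/2. Of 55 cytosolic ribosomal protein genes, 4 rose and 4 fell (7.27% each, below the shares of all genes), with a median of 0.01. The 4 that rose became 2 without replicate 2 at 0 h or at 2 h and 8 with arrays scaled to the same mean, and the 4 that fell became 2 without replicate 1 or 2 at 0 h or replicate 2 at 2 h. Rps15a was above background at 0 h only and was at least 2.21-fold lower at 2 h, and Rpl22l1, a paralog of Rpl22, rose by 2.05 ± 0.44. Ribosome biogenesis factors rose in 13 of 44 cases (29.5%) and fell in 7 (15.9%), counts that moved to between 6 and 8 and to 3 or 4 with any 1 of the 4 arrays left out. The nucleolar proteins Npm1 (0.85) and Pes1 (0.96) were among those that rose.

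Glycolysis genes were mostly lower, with 11 of 20 falling (55.0%, against 20.9% of all genes) and 1 rising, and a median of -0.36, or -0.28 at the bounds. In control cells 7 of the 20 were lower and none higher, against 5.86% and 4.42% of all genes, with a median of -0.21. The glucose transporters Slc2a3 and Slc2a1 fell from 11.88 and 11.85 to 10.36 and 10.21 (-1.58 ± 0.13) and from 10.65 and 10.55 to 9.48 and 9.47 (-1.13 ± 0.14). Pfkfb4, which makes an activator of phosphofructokinase, went from 7.77 and 7.79 to 6.51 and 6.62 (-1.21 ± 0.20). The gene that rose was Hif1a, a hypoxia factor that induces glycolysis genes (7.31 and 7.31 to 8.73 and 8.87). The other 8 members did not pass the test.

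Of the sterol synthesis genes, 4 of 23 were higher and 4 lower (17.4% each, near the 17.8% and 20.9% of all genes). The 4 lower became 1 without replicate 2 at 0 h or in a fit to only the arrays compared, and 2 without replicate 1 at 2 h. In control cells 11 of the 23 were lower and none higher, against 5.86% and 4.42% of all genes. The median there was -0.42 against -0.06 with Akti1/2. The signed change was higher than in control cells for 9 members and lower for none, against 4.25% and 4.16% of all genes. A higher value includes a fall in control cells that was smaller or absent with Akti1/2, and only 4 members were called higher with it. The count of 9 was smaller without some single arrays. Dhcr7, the last enzyme of cholesterol synthesis, rose from 6.72 and 6.76 to 7.53 and 8.41 (1.23 ± 0.21, adjusted p = 0.00103), and Sc4mol (now Msmo1) rose by 0.93. Scd2, a fatty acid desaturase, fell from 8.35 and 8.77 to 8.12 and 7.67 (-0.67 ± 0.19, adjusted p = 0.0162), with a change of -0.24 on chip A and -1.10 on chip B. Without replicate 2 at 0 h the adjusted p of Scd2 was 0.149, without replicate 2 at 2 h it was 0.148, and that of Sc4mol was 0.0604 without replicate 2 at 0 h and 0.0636 without replicate 1 at 2 h.

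Of the DNA replication genes, 12 of 38 fell (31.6%) and 4 rose (10.5%), and of the mitosis genes, 10 of 27 fell (37.0%) and 1 rose (3.7%), against 20.9% and 17.8% of all genes. Without replicate 2 at 2 h the falling members numbered 6 in each list, and without replicate 2 at 0 h those of DNA replication also numbered 6. Plk1, a kinase of mitotic entry, fell from 11.08 and 11.03 to 9.69 and 9.17 (-1.63 ± 0.16, adjusted p = 2.38e-05). Rrm2, the ribonucleotide reductase subunit that limits nucleotide supply, fell from 8.94 and 8.80 to 7.70 and 7.64 (-1.20 ± 0.10), and the G1 cyclin Ccne1 by 0.94. Plk4, of centriole duplication, was the mitosis gene that rose, from 6.85 and 6.23 to 8.15 and 8.06 (1.57 ± 0.27). Among apoptosis regulators 6 of 23 rose (26.1%) and 8 fell (34.8%), or 5 with any 1 of the 4 arrays left out. Mcl1, a survival factor, fell by 1.08, while Bcl2a1d, of the same family, rose by 1.88 and is one of several near-identical copies that an array probe may not separate.

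The largest falls beside Egr1 were spread over unrelated functions. Mfsd2 (now Mfsd2a), a lipid transporter, fell from 8.52 and 8.65 to 6.01 and 5.65, 6.76-fold lower (-2.76 ± 0.18, adjusted p = 1.40e-06). Grasp, a scaffold of receptor trafficking, had levels of 8.41 and 8.44 at 0 h and of 6.30 and 6.06 at 2 h (-2.25 ± 0.21, adjusted p = 1.32e-05). Myo1g, the myosin of lymphocyte membranes, went from 10.28 and 10.25 to 8.34 and 8.13 (-2.03 ± 0.24, adjusted p = 7.41e-05). All of them started well above background, and both arrays at 2 h lay below both arrays at 0 h.

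The remaining 8 of the 12 largest falls lay between -1.96 and -1.82. They were BC037034 (now Map11), Ccdc120, Tbl2, Itpk1, an inositol phosphate kinase, Sh3tc1, the stress-responsive kinase Plk3, Klhl21, a ubiquitin ligase adaptor of mitosis, and the transcription factor Arid3b. Ccdc120 and Sh3tc1 were above background on 1 of the 2 arrays at 2 h. Sh3tc1 (-1.28 on chip A and -2.50 on chip B) and Klhl21 (-1.45 and -2.19) had the least even changes of these between the chips.

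At the lower end of brightness, 473 of the tested genes were above background on at least 1 array at 2 h and on none at 0 h, and 155 of them were called higher, while 181 were above background at 0 h only and 106 of them were called lower. Col4a1, a basement membrane collagen, led the first kind with levels of 5.26 and 5.06 at 0 h and of 8.15 and 7.95 at 2 h, at least 5.26-fold higher (adjusted p = 2.28e-08). The largest bounds of the second kind were those of Dab2ip, a Ras GTPase-activating protein (at least 2.72-fold lower, adjusted p = 9.93e-06), Rps15a, Nr6a1, an orphan nuclear receptor (2.02-fold), Bbs12, a chaperonin-like protein of the primary cilium (2.02-fold), Mmp9, a gelatinase (1.96-fold), and Trip10, an adaptor of CDC42 (1.95-fold). Bbs12 had an adjusted p of 0.0533 without replicate 2 at 0 h.

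The response was next compared with that of control cells, which have their own arrays at 0 h and 2 h. Only the cells with Akti1/2 spent these 2 h with inhibitor, so a difference cannot be tied to stimulation alone. The change between 0 h and 2 h differed between cells with and without Akti1/2 for 622 genes (8.41%), with a higher value with Akti1/2 for 314 (4.25%) and a lower one for 308 (4.16%), by the interaction in the same limma fit. The count of 622 was sensitive to single arrays: it was 193 and 304 without replicate 1 or 2 of control cells at 0 h, 348 and 316 without those of control cells at 2 h, 259 and 278 without those with Akti1/2 at 0 h, and 279 without replicate 2 with Akti1/2 at 2 h. Control cells alone had 760 calls (10.3%), 327 higher (4.42%) and 433 lower (5.86%). Of the 1313 genes called higher with Akti1/2, 213 were also called higher in control cells, 19 were called lower there, 271 had a larger response than control cells and 17 a smaller one. Of the 1544 genes called lower, 275 were also called lower in control cells, 12 were called higher there and 264 had a more negative response. The calls and the difference rest on the same 4 arrays with Akti1/2. Choosing called genes thus tilts these splits by itself, and they do not show that Akti1/2 strengthened the response. Here and below, a larger response is a higher signed value with Akti1/2 than in control cells, and a smaller one a lower value. For 2305 genes called with Akti1/2 the difference from control cells did not pass the test, which does not show that they responded alike.

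The 6 largest fitted differences above control cells were those of Trib3, Slc1a4, Chac1, Atf3, Col4a1 and Dhcr7. Trib3 had levels of 6.52 and 6.49 at 0 h and of 6.25 and 6.35 at 2 h in control cells, against its rise with Akti1/2, a difference of 3.07 ± 0.18 (adjusted p = 5.68e-06). Chac1 was at 8.02 and 8.13 and then at 7.95 and 7.58 in control cells (difference 2.34 ± 0.25, adjusted p = 4.23e-04). Slc1a4 was not above background on any of these 4 control arrays, so its difference of 2.58 ± 0.26 rests on levels that are only bounds. Trib3 and Chac1 thus rose with Akti1/2 and were not called in control cells, where a rise of Slc1a4 below background could not be seen. Of the 28 members of the stress response list tested, control cells had 2 higher and 4 lower. A larger response with Akti1/2 was called for 19 of the 28, and for fewer without replicate 1 of control cells at 0 h. A larger response was found for 4.25% of all genes. Col4a1 (2.25), Dhcr7 (2.17), Atf3 (2.07), Aldh18a1 (1.91), Cebpb (1.88) and Ddit3 (1.57) also had higher values. Col4a1 and Atf3 were not above background at 0 h in either kind of cells, and Atf3 on 1 of 2 control arrays at 2 h, so their differences rest in part on levels at background and have no exact size. Dhcr7 fell in control cells, from 6.77 and 6.73 to 5.70 and 5.94.

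Genes outside the stress response with a larger response included Cxcr4 and Arrdc3. In control cells Cxcr4 went from 7.65 and 7.59 to 8.97 and 9.17 (difference 1.82 ± 0.37, adjusted p = 0.0133), and Arrdc3 from 6.07 and 5.65 to 6.38 and 6.28 (difference 1.97 ± 0.30, adjusted p = 0.00373). Of the 24 members of the FOXO list tested, 3 had a larger response and none a smaller one, against 4.25% and 4.16% of all genes. Among the 3 were Pik3ip1 (1.74) and Tsc22d3 (1.64), neither of which was called in control cells. Il16 had a difference of 1.64. The differences of Cxcr4 and Pik3ip1 lost their calls without replicate 1 of control cells at 0 h (adjusted p = 0.0508 and 0.0568) and without replicate 2 with Akti1/2 at 2 h (0.0504 and 0.0522), and that of Pik3ip1 also without replicate 2 with Akti1/2 at 0 h (0.0564).

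Cytokine genes led the smaller responses. Of the 24 ligands, 11 had a smaller response than in control cells (7 among genes above background on all arrays) and 1 a larger one. The shares over all genes were 4.16% and 4.25%. Il5 rose in control cells from 8.61 and 8.64 to 10.43 and 10.28, the opposite of its fall with Akti1/2 (difference -2.80 ± 0.36, adjusted p = 0.00147). Tnf, an inflammatory cytokine, went from 7.38 and 7.39 to 11.30 and 11.10 in control cells and from 6.08 and 6.58 to 7.52 and 7.66 with Akti1/2 (difference -2.56 ± 0.34, adjusted p = 0.0018). Csf2 went from 6.77 and 6.97 to 11.91 and 11.74 in control cells (difference -2.29 ± 0.29, adjusted p = 0.00134). Tnf and Csf2 were thus called higher in both kinds of cells.

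Tnfsf9, which encodes the ligand of 4-1BB, was above background on 1 of the 4 arrays with Akti1/2 and had no call there (0.32, adjusted p = 0.289, or 0.0400 without replicate 1 at 2 h), while in control cells it reached 8.22 and 7.72. Its fitted difference was -2.47 ± 0.33 (adjusted p = 0.00171), and as it was not above background at 0 h in either kind of cells, the size is not exact. Tnfsf14, the cytokine LIGHT, rose in both (0.75 with Akti1/2, difference -2.21), and Gdpd5, a glycerophosphodiesterase, fell with Akti1/2 (-0.90) and rose in control cells (1.40). Mfsd2 (-2.0), Il3 (-1.72), Ier3 (-1.56), Ccl1 (-0.97), Slc2a3 (-0.92) and Cd3e (-0.86) had lower values as well. Il3, too, was not above background at 0 h in either kind of cells. The difference of Ccl1 lost its call with any array left out other than replicate 2 of control cells at 0 h and replicate 2 with Akti1/2 at 2 h (adjusted p 0.0784 to 0.126). For Nfkbia (-0.66, adjusted p = 0.10) and Il10 (-0.49, adjusted p = 0.34) the difference did not pass the test. Of the 22 members of the NF-κB list, 2 had a smaller response than in control cells, against 4.16% of all genes. The 2 became 1 with arrays scaled to the same mean, with the replicate block or in a fit to only the arrays compared.

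**Figure D4:**
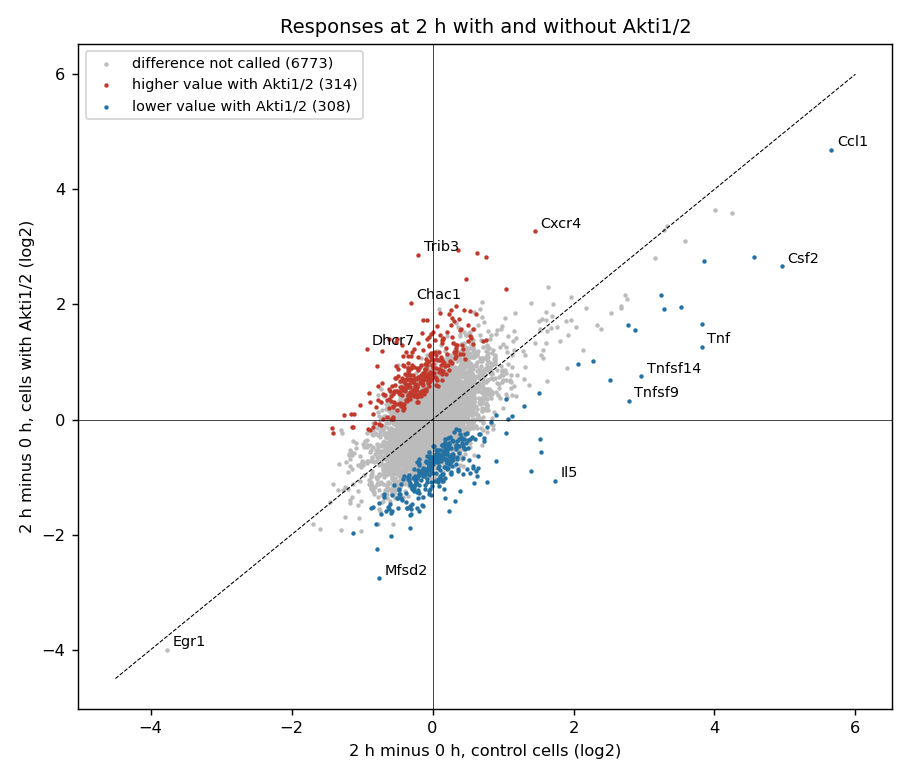
The change between 0 h and 2 h with Akti1/2 (vertical, log2) is plotted against that in control cells (horizontal, log2) for 7395 genes, with equal responses on the dashed line, red for the 314 genes with a higher value with Akti1/2 and blue for the 308 with a lower one. Trib3 and Chac1 stand above the line near zero on the horizontal axis, Tnf and Csf2 below it, and Egr1 close to it.

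Later arrays show which of these changes lasted, each against 2 h with Akti1/2. Trib3 rose further, to 10.41 and 10.26 at 6 h and 11.12 and 11.14 at 12 h (1.38 ± 0.13 above 2 h, adjusted p = 6.58e-06). Ccl3 reached 12.55 and 12.85 at 12 h (2.19 ± 0.12 above 2 h) and Il3 reached 11.06 and 11.70 (3.84 ± 0.23 above 2 h). These genes had not reached their highest measured level by 2 h. Cxcr4 had levels of 10.36 and 11.05 at 6 h and of 10.96 and 10.73 at 12 h, differences from 2 h that did not pass the test (adjusted p = 0.38 and 0.58).

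Other genes turned back after 2 h. Rgs12 came down from 9.74 and 9.85 at 2 h to 6.76 and 6.44 at 12 h (-3.20 ± 0.17, adjusted p = 1.37e-07), below its levels at 0 h, and Arrdc3 to 6.65 and 6.68 (-1.59 ± 0.21). Il5, lower at 2 h, was at 10.85 and 10.54 at 6 h (3.38 ± 0.26 above 2 h, adjusted p = 1.73e-05) and at 9.22 and 9.78 at 12 h. Slc2a3 was still at 10.31 and 10.18 at 6 h and came to 12.00 and 11.77 at 12 h (1.60 ± 0.13 above 2 h), close to its levels at 0 h. Egr1 went still lower, to 7.74 and 7.95 at 6 h (-1.24 ± 0.29, adjusted p = 0.00702).

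**Figure D5:**
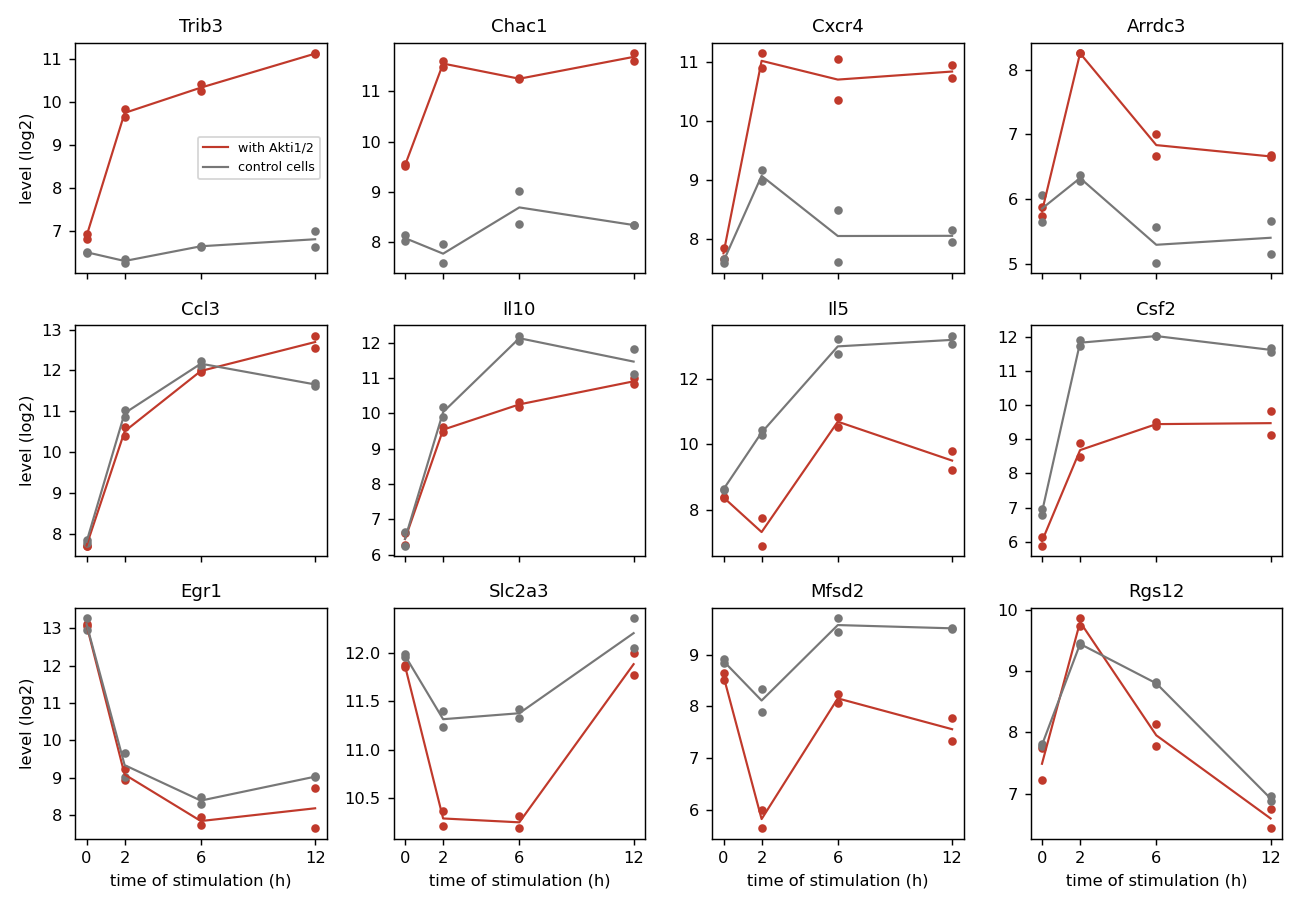
Normalized levels (log2) of 12 genes are plotted over 0, 2, 6 and 12 h of stimulation in cells with Akti1/2 (red) and control cells (grey), with a point for each array and lines through the group means. Trib3 and Ccl3 climb to 12 h with Akti1/2, Arrdc3 and Rgs12 peak at 2 h, and Il5 dips at 2 h before it rises.

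The remaining lists are set against the 17.8% higher and 20.9% lower of all genes. Heat shock and ER chaperones had 11 of 32 higher (34.4%), led by the chaperonin subunit Cct5 (1.46 ± 0.35), and 4 lower (12.5%), led by the co-chaperone Bag3 (-1.13 ± 0.17). Messenger RNA decay factors had 6 of 10 higher (60.0%), led by the nuclease Zc3h12a (2.09 ± 0.21) and the AU-binding protein Zfp36 (1.59 ± 0.14), both of which limit cytokine messages, and 2 lower, of which 1 or none was called with any 1 of the 4 arrays left out. NFAT and calcineurin genes had 3 of 19 higher (15.8%) and 6 lower (31.6%). Mitochondrial ribosomal proteins had 10 and 16 of 68 (14.7% and 23.5%), near the shares of all genes, and translation factors 13 and 9 of 54 (24.1% and 16.7%), a list that also holds their repressors and a methyltransferase. Proteasome subunits had 4 of 32 called in each direction (12.5%, with 8 lower under quantile normalization without background correction), led by Psmd1 (1.51 ± 0.18), oxidative phosphorylation genes 7 and 6 of 75 (9.33% and 8.0%), led by Cox6c (1.46 ± 0.36), and canonical histone genes, which share sequence, 3 and 1 of 41 (7.32% and 2.44%), shares below those of all genes. Without replicate 2 at 0 h the adjusted p of Cct5 was 0.0543 and 4 chaperones were called higher, against 7 without replicate 2 at 2 h. With 1 array left out, the NFAT genes called lower numbered down to 2, the translation factors down to 6 higher and 4 lower, the mitochondrial ribosomal proteins down to 3 higher and 7 lower and the oxidative phosphorylation genes down to 3 in each direction.

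Defining markers of other cells were mostly at background. None of the 5 markers of other T and NK cells and none of the 8 B cell markers on the array were tested, since none lay above background on 2 arrays. Of 14 myeloid markers 2 were tested, and Mpo, myeloperoxidase, fell from 7.62 and 7.57 to 6.92 and 6.96 (-0.65 ± 0.12). Of 12 stromal and erythroid markers 2 were tested, and Hba-a1, an alpha globin, fell from 10.67 and 10.67 to 9.94 and 10.07 (-0.66 ± 0.14). The summed log2 level of the myeloid list was 9.11 to 9.20 at 0 h and 8.85 to 8.89 at 2 h, and that of the stromal and erythroid list 10.91 to 10.92 and 10.33 to 10.44. Their part in the results was not tested. Of the 13 Th2 markers 12 were tested, with Gata3 and Il4 among the bright genes, and of 1077 olfactory receptors 21 were tested and none was called.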

How the data were processed

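Per the file headers, the deposited values are bead intensities on a linear scale, summarised by the authors with the scanner software as 1 intensity per gene and array, without normalization or background subtraction. The Illumina mouse RefSeq arrays carry 18138 gene entries and 798 negative controls. The genome build is not given in the sources used here. Gene symbols are those of the array design; 16590 entries matched the mouse RefSeq gene table by identifier and 610 by symbol.

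Genes with an intensity that fewer than a share of 0.01 of the negative controls reached counted as above background, and the 7395 for which this held on at least 2 of 16 arrays were tested. neqc (offset 16) gave background-corrected, quantile-normalized log2 values in limma 3.58.1 (R 4.3.3), and lmFit and eBayes were run with all 8 groups in 1 fit, with 8 residual and 4.26 prior degrees of freedom, Benjamini-Hochberg adjustment over the genes tested and calls at an adjusted p under 0.05. The number of arrays limits the precision. Where both arrays of a group were at background, the fold is a lower bound: on each dim array the gene's level was raised to the lowest level above background if it lay under it, and the mean of the bright group was set against the mean of these.

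Genes named were, among called genes with 1 sign on both chips, the 12 largest rises and falls, the 6 largest bounds in each direction and the 6 largest differences from control cells in each direction, with up to 4 of each of 37 lists. Members and lists were chosen with earlier results of these data known. On simulated arrays, 200 changes were planted in genes above background on all arrays. In the main comparison among 7510 genes, 26.5%, 81.8% and 100% of changes of 0.5, 1 and 2 on the log2 scale were recovered, with 6 calls not planted. For the difference of responses the shares recovered were 1.5%, 50.0% and 93.9%. Dimmer genes held no planted change, and many more genes were called in the data than were planted. The shares therefore do not describe recovery over all genes tested. The second control table was not used. Results for some genes that the naming rule selects are not reported here. Python 3.11.15 with pandas 2.3.3, numpy 2.4.6 and matplotlib 3.10.9 produced the tables and figures.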

Additional observations from a re-analysis of the deposited data

Results flagged for a closer look

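The genes below had a change between 0 h and 2 h that differed between cells with and without Akti1/2, by the interaction term in limma. In all, 622 genes did so. The term also holds the 2 h longer with the inhibitor, which control cells did not have, and cannot tell it apart from stimulation. Each value is the log2 change with Akti1/2 minus that in control cells. Positive values were those of Trib3 (3.07), Slc1a4 (2.58), Chac1 (2.34), Col4a1 (2.25), Dhcr7 (2.17), Atf3 (2.07), Arrdc3 (1.97), Aldh18a1 (1.91), Cebpb (1.88), Cxcr4 (1.82), Pik3ip1 (1.74), Tsc22d3 (1.64), Il16 (1.64) and Ddit3 (1.57). Negative values were those of Il5 (-2.80), Tnf (-2.56), Tnfsf9 (-2.47), Gdpd5 (-2.30), Csf2 (-2.29), Tnfsf14 (-2.21), Mfsd2 (-2.0), Il3 (-1.72), Ier3 (-1.56), Ccl1 (-0.97), Slc2a3 (-0.92) and Cd3e (-0.86). Slc1a4, Col4a1, Atf3, Tnfsf9 and Il3 were not above background at 0 h in either kind of cells, and Slc1a4 not at 2 h in control cells, so that their values have no exact size and no order among the others. Il5, Gdpd5 and Dhcr7 were among those called in opposite directions in the 2 kinds of cells. With 2 arrays per group, no single array could be examined as an outlier within its group.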

How the results depend on the processing

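Of the 115 named genes called at 2 h with Akti1/2, none changed direction under the alternatives run, and 10 lost the call under at least 1 of them. The main count was 2857. Leaving out 1 array gave 1803 to 2282 calls, of which 833 to 1051 were higher and 970 to 1231 lower, and the J5 score beyond 20, computed on untransformed intensities of all genes with arrays scaled to a common 95th percentile, called 120 genes (93 higher and 27 lower), a score without an error term. Of the 120, 71 were called by limma (59.2%, and 2.49% of the limma calls). For the difference of responses, leaving out 1 array gave 193 to 628 calls, of which 94 to 328 were higher and 99 to 300 lower, against 622, and 3 of the 26 named genes lost the call. The cause of these moves beyond the smaller number of arrays was not tested. Among changes that were not called, the difference for Egr1 lay between -0.547 and 0.0906 with an array of control cells at 2 h left out, and the change of Tnfsf9 was -0.0405 without replicate 2 with Akti1/2 at 2 h and 0.685, then called, without replicate 1. Arrays with the same replicate number did not deviate together from their group means (correlation 0.067 between 0 h and 2 h with Akti1/2, and -0.296 to 0.264 over pairs of groups), so the numbers were not taken to pair the samples, although arrays with the same number also share a chip in all groups but control cells at 12 h. With the replicate block, 2858 and 600 genes were called, and with the chip as a block 2865 and 635. Quantile normalization without background correction gave 2973 and 806 calls, and scaling to the same mean 2722 and 603, with 45.1% to 46.9% of calls higher. The other filters gave 2548 to 2877 and 453 to 675 calls, and a fit to only the arrays compared 2314 and 523. For a group left with 1 array, the spread was taken from the remaining groups. Calls among genes near background are limited by signal over the negative controls.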

Other observations

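Groups of genes picked out by symbol after their values had been seen are given as values at 2 h with Akti1/2, with no test, beside the 17.8% of all genes called higher and 20.9% called lower. Of 128 tested genes with a Zfp symbol, most of them zinc finger transcription factors, 49 were called higher and 11 lower. Their median change was 0.29 (0.04 in control cells). Compared with control cells, 6 had a larger response and 1 a smaller one, against 4.25% and 4.16% of all genes. Of 14 tubulin and actin genes, which encode the main cytoskeletal filaments, 7 were called lower and 0 higher by limma, with a median of -0.29. Of 13 genes with a Zc3h symbol, which encode RNA-binding zinc finger proteins, 4 were called higher and 0 lower.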
